A study of Arabidopsis thaliana with 3 samples.

Results

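OCT1, AT2G39210 and AT4G09640 are 3 Arabidopsis thaliana genes for membrane transport proteins whose signals were higher in nectaries of the nectarless cwinv4-1 mutant than in wild-type nectaries. They were chosen by name because of that difference, out of the 14338 probe sets analysed here, so their values on this comparison are given as a description and without a test. The 2 cwinv4-1 samples and the 1 wild-type sample were of ecotype Columbia-0 and came from plants 30-35 days old. Each was a pool of hand-dissected lateral nectaries from flowers at stages 14-15 and was hybridised to 1 array with 1 colour. The groups differ in the cwinv4-1 allele of CWINV4, and the labels give no treatment. The title of replicate 1 reads cwinv4-1a where its genotype label reads cwinv4-1; what the letter stands for is not given, and both mutant samples are taken as one group here. CWINV4 has no named probe set here, so the mutated gene was not analysed here and gave no check of the labels. In whole nectaries, a change in the number of cells of one type and a change in RNA per cell cannot be told apart.

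Nectar leaves the gland when sugar crosses the plasma membrane. In Arabidopsis the sucrose exporter SWEET9 releases sucrose, and the cell wall invertase CWINV4 splits it outside the cell. Each of the 3 genes belongs to another transporter family. OCT1 is an organic cation/carnitine transporter, a plant relative of the animal carriers that move carnitine and other small charged molecules. AT2G39210 is a nodulin-like protein of the major facilitator superfamily, a large group of carriers of small solutes; which solute it moves is not given in the sources used here. AT4G09640 belongs to the NIPA-like family, whose members in mammals carry magnesium.

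The tissue label was checked on SWEET9, the 1 nectary marker of 4 listed with a named probe set. Its signal was 16300 and 38100 on the cwinv4-1 arrays and 19700 on the wild-type array, which placed it 33rd, 14th and 21st by brightness. Replicate 2 of cwinv4-1 stood apart from both other arrays. Over the 10334 probe sets that all 3 arrays measured, its log2 signals had an SD of difference of 0.65 to the other mutant array and of 0.73 to the wild-type array, while replicate 1 and wild-type differed with an SD of 0.44. Signals were missing for 20.7% of probe sets on replicate 2, for 13.2% on replicate 1 and for 13.1% in wild-type. What a missing value means is not given, and "no signal" below says only that the cell holds none. For that reason each value of the 3 genes is given for each mutant array. With 3 arrays in all, their number limits the precision of every value.

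OCT1 (AT1G73220, 1 probe set) was several-fold brighter on both mutant arrays. Its signal, a linear MAS5 intensity, was 1569 on cwinv4-1 replicate 1 and 1073 on replicate 2, against 240.9 on the wild-type array. Both mutant signals lay far above the wild-type one, and replicate 1 was the highest. The mutant signal averaged 1321 ± 351 (SD, n = 2). On replicate 1 the signal was 6.51-fold that of wild-type, and on replicate 2 it was 4.45-fold. The log2 ratio averaged 2.43 ± 0.39 (SD, n = 2 mutant arrays over the same wild-type array).

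AT2G39210 (1 probe set) read 2483 on cwinv4-1 replicate 1 and 1972 on replicate 2, against 531.7 on the wild-type array. Both mutant signals lay above the single wild-type one, and replicate 1 was again the higher of the mutant arrays. The mutant signal averaged 2228 ± 361 (SD, n = 2). The ratio to wild-type was 4.67-fold on replicate 1 and 3.71-fold on replicate 2, and the log2 ratio averaged 2.06 ± 0.24 (SD, n = 2). On the log2 scale the mutant arrays agreed more closely for this gene than for the other 2. On the linear scale its SD was the largest of the 3.

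AT4G09640 (1 probe set) read 1395 on cwinv4-1 replicate 1 and 1849 on replicate 2, against 461.8 on the wild-type array. Here too both mutant signals lay above the single wild-type one, but replicate 2 was the higher mutant array. The mutant signal averaged 1622 ± 321 (SD, n = 2). The ratio to wild-type was 3.02-fold on replicate 1 and 4.00-fold on replicate 2, with a mean log2 ratio of 1.80 ± 0.29 (SD, n = 2).

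**Figure D1:**
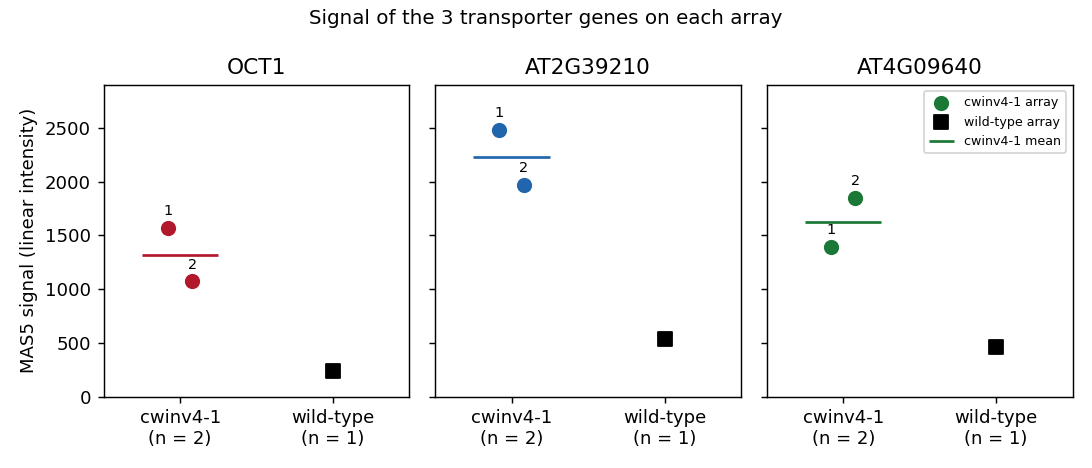
MAS5 signal (linear intensity, vertical axis from 0) of OCT1, AT2G39210 and AT4G09640 on the 2 cwinv4-1 arrays (circles, numbered by replicate, with their mean as a bar) and the wild-type array (square). Every mutant signal is above the wild-type signal of its gene, with mutant signals of 1073 to 2483 and wild-type signals of 240.9 to 531.7.

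All 3 genes were at least 3-fold higher on both mutant arrays on the deposited scale. With a pseudocount of 222 added to every signal, none of them was: the log2 ratios on replicates 1 and 2 were then 1.95 and 1.48 for OCT1, 1.84 and 1.54 for AT2G39210 and 1.24 and 1.60 for AT4G09640. AT4G09640 was only just past 3-fold on replicate 1, at 3.02-fold. Its log2 ratio there was 1.59 on the deposited scale and 1.58 after quantile normalization. On the deposited scale, of all 7750 tested probe sets 0.297% were at least 3-fold higher on both, which is 23 probe sets, 11 of them with a single gene name. At least 2-fold higher on both arrays were 1.29% of the tested probe sets, and 30.0% lay above wild-type on both arrays by any amount. Because this difference chose the genes, nothing is read from these shares. Both ratios of a gene use the same wild-type array, so a low wild-type reading would raise both at once, and no second wild-type array is used here to measure that spread.

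The rank of each gene within an array moved with its signal. OCT1 was 2442nd of 12441 probe sets with a signal on cwinv4-1 replicate 1 and 3250th of 11365 on replicate 2, against 8812th of 12455 on the wild-type array. In percentiles it stood at 80.3 and 71.4 in the mutant and at 29.2 in wild-type, so it stood in the upper part of the range in the mutant and in the lower part in wild-type. Its wild-type signal was still above the 25th percentile of that array, 203.8.

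AT2G39210 stood at the percentiles 87.9 and 84.3 on the mutant arrays and 51.2 on the wild-type array. AT4G09640 stood at 77.9 and 83.2 on the mutant arrays and 47.2 on the wild-type array. These 2 genes were thus near the middle of the wild-type array. Brightness also depends on how well a probe set binds, so ranks are set against each other between arrays and not between genes.

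The 3 genes differed in how they varied between the mutant arrays. OCT1 was 1.46-fold brighter on replicate 1 than on replicate 2, a log2 difference of 0.55, and 25.4% of tested probe sets had a larger gap between these arrays. AT2G39210 was 1.26-fold brighter on replicate 1, a log2 difference of 0.33, and 48.1% had a larger gap. AT4G09640 was 1.33-fold brighter on replicate 2, a log2 difference of -0.41 for replicate 1 minus replicate 2, and 38.7% had a larger gap. For each gene the gap between the mutant arrays was smaller than its distance from wild-type on either array. Large distances from the lone wild-type array chose the genes, so this follows largely from the choice and nothing is read from it.

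By size of the log2 ratio on replicate 1 alone, OCT1 was 3rd, AT2G39210 8th and AT4G09640 32nd of the 7750 tested probe sets. On replicate 2 alone they were 54th, 86th and 68th. OCT1 thus led on both arrays, while AT2G39210 and AT4G09640 changed places. On replicate 2 many more probe sets departed from wild-type: 382 were at least 2-fold higher there, against 134 on replicate 1.

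**Figure D2:**
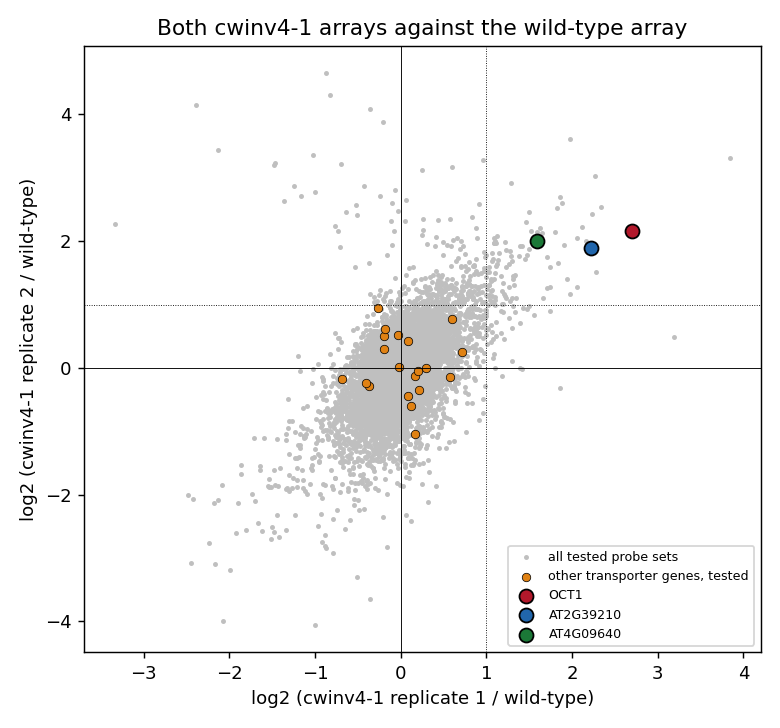
Log2 ratio of each cwinv4-1 array to the wild-type array, with replicate 1 on the horizontal and replicate 2 on the vertical axis. Shown are all 7750 tested probe sets (grey), 20 tested genes from the transporter lists (orange) and the 3 genes (large points). The orange points include AQI, an aquaporin interactor and not a transporter. Dotted lines mark 2-fold. OCT1 lies at 2.70 and 2.16, AT2G39210 at 2.22 and 1.89 and AT4G09640 at 1.59 and 2.0, while no orange point is beyond 2-fold on both arrays.

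The measured relatives with a signal on all 3 arrays were less than 2-fold from wild-type on each mutant array. For OCT1 no comparison within its family was possible, since none of the other 5 OCT loci has a named probe set here. Of the 17 other nodulin-like loci, 5 have one, and 4 of these had a signal on all 3 arrays. Of the 8 other NIPA-like loci, 7 have one, and 5 had a signal on all 3 arrays.

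Among the nodulin-like relatives of AT2G39210, AT1G80530 had signals of 1162 and 705.8 in cwinv4-1 and 776.6 in wild-type. It was thus above wild-type on replicate 1 and below it on replicate 2. AT5G14120 had 498.8 and 506.3 in cwinv4-1 and 504.4 in wild-type, nearly the same signal on all arrays. AT4G19450 had 218.1 and 361.7 in cwinv4-1 and 201.6 in wild-type, the largest mean log2 ratio of these 4, at 0.48. AT2G16660 had 108.3 and 186.5 in cwinv4-1 and 109.3 in wild-type, and for it replicate 2 alone stood apart. AT1G74780 had no signal on either mutant array and 109.4 on the wild-type array. The mean log2 ratio of AT2G39210 was 1.58 above that of AT4G19450.

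Among the NIPA-like relatives of AT4G09640, AT1G34470 had the largest mean log2 ratio, 0.26. It read 649.3 and 824.7 in cwinv4-1 and 611.3 in wild-type. AT3G26670 read 528.9 and 773.6 in cwinv4-1 and 539.7 in wild-type, and AT2G21120 read 509.5 and 830.7 in cwinv4-1 and 586.1 in wild-type. For these 2 genes replicate 1 lay just below wild-type and replicate 2 above it. AT1G71900 read 500.6 and 409.7 in cwinv4-1 and 409.5 in wild-type, so that replicate 2 matched wild-type. AT5G11960 read 842.5 and 689.1 in cwinv4-1 and 748.5 in wild-type, 1 array on either side. AT4G13800, with 169.3 on replicate 1 and 129.7 in wild-type, and AT3G23870, with 44.1 and 63.2, had no signal on replicate 2. The mean log2 ratio of AT4G09640 was 1.54 above that of AT1G34470.

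**Figure D3:**
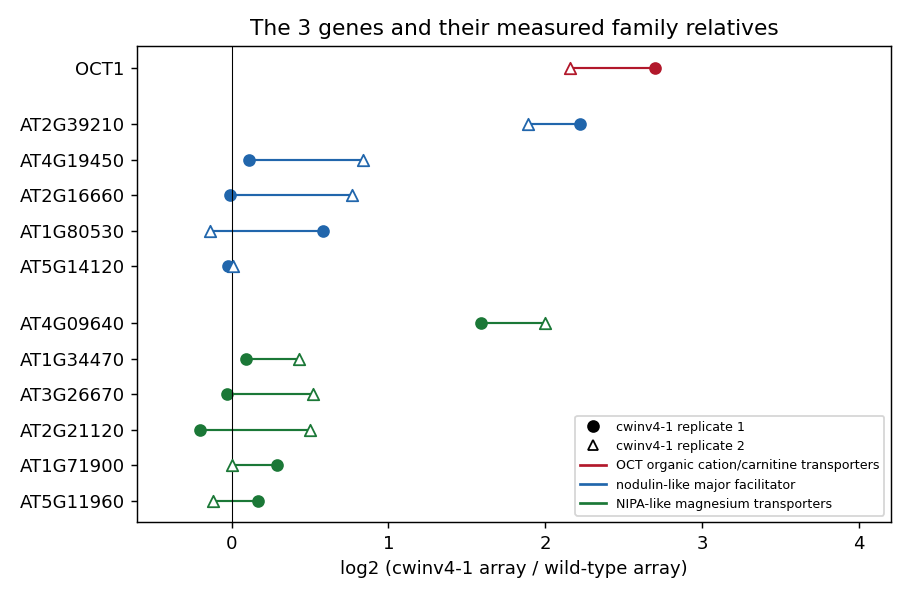
Log2 ratio of each cwinv4-1 array to the wild-type array (horizontal axis; circle for replicate 1, triangle for replicate 2) for the 3 genes and their family relatives with a signal on all 3 arrays, one gene a row, coloured by family. The 4 nodulin-like relatives lie between -0.14 and 0.84 and the 5 NIPA-like ones between -0.20 and 0.52, while AT2G39210 and AT4G09640 lie at 1.59 or above on both arrays.

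In limma's moderated test across all 7750 tested probe sets, 0.219% passed as higher and 0.206% as lower in cwinv4-1 at an adjusted p of 0.05. After quantile normalization, median centring or a floor on low signals 0 passed either way, with 397, 399 and 479 probe sets at an unadjusted p under 0.05. None of the 7 tested relatives, 2 nodulin-like and 5 NIPA-like, passed as higher or lower, and none had an unadjusted limma p under 0.05. Their log2 fold changes (cwinv4-1 minus wild-type) had a median of 0.11 over the 2 nodulin-like and 0.15 over the 5 NIPA-like genes, beside -0.05 over all tested probe sets. Standard errors of these fold changes ran from 0.39 to 0.42. Few of all tested probe sets had an unadjusted p under 0.05, so nothing is read from its absence among 7 relatives. The difference between a gene and its relatives was not tested, because it would rest on the values that chose the gene.

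Other transporter families were covered thinly. Of 40 loci for sugar transporters of the SWEET, STP and SUC families, 12 have a named probe set and 3 were tested, while the proton pumps, plasma membrane aquaporins and amino acid permeases listed (11, 13 and 8 loci) have none here. SWEET9 had a log2 fold change of 0.34 (SE 0.61), SWEET1 of 0.22 (SE 0.44) and SWEET4 of -0.43 (SE 0.42), each with a limma adjusted p of 1. None of the 3 passed, none had an unadjusted p under 0.05, and 1 of them, SWEET4, lay below wild-type on both mutant arrays. SWEET8, too dim to be tested, read 193.7 and 407.4 in cwinv4-1 and 194.8 in wild-type, so that replicate 2 alone stood apart. The median log2 fold change of the 3 tested genes was 0.22, with -0.27 on replicate 1 and 0.62 on replicate 2. With only 3 genes tested, nothing is read from the absence of a low p.

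Over all transporter lists, the list of further named transporters and channels included, 49 other probe sets were named, 33 had a signal on all 3 arrays and 20 were tested. Of the 33, 0 were higher by 2-fold or more on both mutant arrays, beside 1.29% of all tested probe sets, and 0 were lower by as much, beside 0.994%. Of the 20, 0 passed limma's test and 0 had an unadjusted p under 0.05. Among the 20, 4 lay above wild-type on both arrays, a share of 20.0% beside 30.0% of all tested probe sets, and 3 lay below on both, 15.0% beside 37.2%. Few of all tested probe sets had an unadjusted p under 0.05, so nothing is read from its absence among the 20. The median log2 fold change of the 20 was 0.06, beside -0.05 over all tested probe sets. The highest was GLR3.3, a glutamate receptor-like channel, with signals of 475.6 and 537.6 in cwinv4-1 and 314.4 in wild-type, a log2 fold change of 0.69 (SE 0.40, limma adjusted p = 0.958). The lowest was VHA-A3, a subunit of the proton pump of the vacuole, with 2426 and 1052 in cwinv4-1 and 2163 in wild-type, a log2 fold change of -0.44 (SE 0.45, limma adjusted p = 1).

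Other tested carriers were within 2-fold of wild-type on both arrays. GTR1, a glucosinolate transporter, read 5358 and 3707 in cwinv4-1 and 5046 in wild-type. AT1G53210, a sodium/calcium exchanger, read 7772 and 8713 in cwinv4-1 and 10300 in wild-type, below it on both arrays. CHX20, a cation/proton exchanger, read 1099 and 1166 in cwinv4-1 and 1423 in wild-type, also below on both. TMT1, a sugar carrier of the vacuole membrane, read 337.1 and 472.8 in cwinv4-1 and 385.2 in wild-type. MTP11, a manganese transporter, read 960.5 and 582.6 in cwinv4-1 and 882.9 in wild-type. For TMT1 and MTP11 the mutant arrays lay on opposite sides of wild-type.

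The genes beside the 3 on the chromosome were followed as well, taking the 5 protein-coding genes on each side (order as in assembly TAIR10.1, from the RefSeq table). Of the 10 neighbours of OCT1, 2 had a signal on all 3 arrays, AT1G73200 and AT1G73230. AT1G73230, which lies next to OCT1, read 1157 and 1447 in cwinv4-1 and 1375 in wild-type, so its mutant arrays fell on either side of wild-type. Around AT2G39210, AT2G39170 and AT2G39260 had a signal on all 3 arrays, with log2 ratios between -0.28 and 0.29. Around AT4G09640, AT4G09620, AT4G09630 and AT4G09670 did, with log2 ratios between -0.32 and 0.28. AT4G09630, next to AT4G09640, read 382.2 and 251.9 in cwinv4-1 and 313.9 in wild-type. Of the neighbours of AT4G09640, 2 of 3 lay above wild-type on both mutant arrays, by log2 ratios of 0.06 to 0.13, beside 30.0% of all tested probe sets; of the other 4 neighbours, 0 did. None of the 7 was 2-fold higher on both mutant arrays, beside 1.29% of all tested probe sets.

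The genes most like each of the 3 were found by the root mean square distance between their pairs of log2 ratios, over 3 arrays and among 4008 other tested probe sets with a single gene name. Within a distance of 0.5 of OCT1 lay 5 tested probe sets besides the 3 genes described, 1 of them with a gene name. That gene was AT5G38710, a proline dehydrogenase of amino acid breakdown, with signals of 2696 and 3113 in cwinv4-1 and 532.5 in wild-type (distance 0.38). The next were AT3G56360 at 0.66, and AT5G55050, a GDSL-type lipase, and ASPGB1, an asparaginase, both at 0.71.

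Within 0.5 of AT2G39210 lay 17 such probe sets, 6 of them named. The nearest was ASPGB1, with signals of 2578 and 2281 in cwinv4-1 and 722.2 in wild-type (distance 0.32). AT2G43670, AT1G11850 and AT3G47070 followed at 0.38, 0.39 and 0.44. ASPGB1 and AT1G11850 were brighter on replicate 1 than on replicate 2, and AT2G43670 and AT3G47070 were brighter on replicate 2.

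Within 0.5 of AT4G09640 lay 54 such probe sets, 25 of them named, the most of the 3. The nearest was AT3G47070, with signals of 1701 and 2380 in cwinv4-1 and 541.5 in wild-type (distance 0.10). TET16, a tetraspanin of the membrane, followed at 0.12, then AT1G72030 at 0.14 and AT1G66100, a thionin, at 0.15. Between the 3 genes themselves the distance was 0.39 for OCT1 and AT2G39210, 0.45 for AT2G39210 and AT4G09640 and 0.79 for OCT1 and AT4G09640. With only 3 arrays, these distances describe likeness of a few readings. The counts within 0.5 were larger for the genes with smaller mean log2 ratios, and larger ratios were rarer. At least 2-fold higher on both arrays were 100 of the 7750 tested probe sets, and at least 3-fold higher were 23. Nothing is therefore read from the difference between the counts.

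The measured genes listed as markers of pollen, carpel and leaf photosynthesis lay below wild-type on both mutant arrays, as did 37.2% of all tested probe sets. They lay further below on replicate 2 than on replicate 1, though RCA hardly so, at log2 ratios of -0.15 on replicate 1 and -0.18 on replicate 2. Of 5 pollen, 3 carpel and 5 leaf photosynthesis loci, 1, 1 and 2 have a named probe set, and none of these 4 was without a signal. CRC, a carpel locus without a named probe set, was also listed as a nectary marker. The pollen gene AT3G07820 read 569.1 and 128.2 in cwinv4-1 and 658 in wild-type, and the carpel gene SPT read 767.7 and 390.9 in cwinv4-1 and 877.3 in wild-type. The summed signal of the leaf genes RCA and LHCB4.1 was 17240 and 15065 in cwinv4-1 and 19307 in wild-type. None of the 4 passed limma's test or had an unadjusted p under 0.05. The pollen gene came close to that p, at a log2 fold change of -1.28. Few of all tested probe sets had an unadjusted p under 0.05, so nothing is read from its absence among 4 genes. What part these markers had in the values of the 3 transporter genes was not tested. The pollen and carpel markers were at log2 ratios of -0.21 and -0.19 on replicate 1 and of -2.36 and -1.17 on replicate 2. OCT1 was at 2.70 and 2.16 on replicates 1 and 2, AT2G39210 at 2.22 and 1.89 and AT4G09640 at 1.59 and 2.0. The ratios of the 3 genes chose them, so nothing about the markers is read from these values.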

How the data were processed

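Nectary RNA of 3 samples was hybridised to 1 array each. The authors deposited 1 linear intensity for each probe set and array, made with MAS5, per the submitters' processing notes, whose version and target level are not given in the sources used here. Per the labels' design text, further wild-type nectary arrays entered the normalization and are not used here. A cell without a value, whose meaning is not given, was kept as missing.

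Of 14338 probe sets besides 37 controls, 8037 had 1 gene name in GEO's platform annotation, 335 had several (none was named) and 5966 were unnamed here. Of the named, 8000 matched a locus in the RefSeq gene table of TAIR10.1. The sources used here name no build, so no coordinates are printed.

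Values were taken as log2 of the deposited intensity. All 3 arrays measured 10334 probe sets, of which the 7750 with a mean log2 signal at or above the 25th percentile were tested, among them the 3 genes described. They were compared two-sided with limma 3.58.1 (R 4.3.3; lmFit, then eBayes with trend), and p-values were adjusted by Benjamini-Hochberg; fold changes are cwinv4-1 over wild-type. The mutant arrays leave 1 residual degree of freedom, to which moderation added 15.4, and the fit takes the lone wild-type array to vary as they do.

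The 3 genes and all lists were chosen with earlier results of these data known. Genes named are the 3, every measured locus of their families, up to 4 of each other list by signal, and the 4 nearest patterns per gene. Further named transporters and channels were listed after the table was seen, and examples from them, markers and neighbours were chosen with their values known. A list taken by keyword from gene names includes AQI, an aquaporin interactor and not a transporter. It had 8 other named probe sets, 3 of them tested, with a median log2 fold change of 0.05, and 0 passed. The further list had 24, 9 tested, a median of -0.18, and 0 passed; no unadjusted p was under 0.05 in either. Nothing is read from these counts in so few genes. Alternatives are given with the closing observations.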

Additional observations from a re-analysis of the deposited data

Results flagged for a closer look

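The array's control probe sets were not compared above. In each of 6 pairs of them the 3′ to 5′ signal ratio was higher on at least 1 cwinv4-1 array than on the wild-type array. On cwinv4-1 replicates 1 and 2 the first GAPDH pair read 2.87 and 11.2, against 4.81 in wild-type, and the second 1.28 and 2.44, against 1.38. The first ubiquitin pair read 1.63 and 3.07, against 1.84 in wild-type, and the second 0.92 and 1.75, against 0.936. For actin the first pair read 32.2 and 25.8, against 25.8 in wild-type, and the second 7.98 and 28.3, against 12.1. Replicate 2 was the higher mutant array in all pairs but the first actin pair. The part of this in the values of OCT1, AT2G39210 and AT4G09640 was not tested. On replicate 1, 5 of the 6 ratios were below wild-type. On the deposited scale all 3 genes were at least 3-fold higher than in wild-type on both replicates. Those values chose the genes, so nothing about the control ratios is read from them.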

How the results depend on the processing

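Quantile normalization, median centring and a floor of 222, the lower quartile over all arrays, each moved the mean log2 ratio of OCT1, AT2G39210 and AT4G09640 by less than the spread between the mutant arrays. Leaving out 1 mutant array gave 2.16 to 2.70 for OCT1, 1.89 to 2.22 for AT2G39210 and 1.59 to 2.0 for AT4G09640. A pseudocount of 222, which by construction shrinks ratios of dim signals, gave 1.72, 1.69 and 1.42, and moved OCT1 in size of ratio to 14th of the tested probe sets, against 5th without it. The limma counts over all probe sets, 17 higher and 16 lower, depended strongly on the setting: 0 and 0 with quantile normalization, median centring or the floor (397, 399 and 479 at an unadjusted p under 0.05), 61 and 65 with no filter, and 45 and 45 with a filter at the 50th percentile. With the pseudocount, without the trend or with a robust prior in eBayes the counts stayed closer to those of the main setting. The prior degrees of freedom ran from 3.44 with the robust prior to 157 with the filter at the 50th percentile. The cause was not tested. No other member of the fixed transporter lists passed in any of the 8 alternatives. At least 2-fold higher and lower on both arrays were 100 and 77 probe sets, against 38 and 48 with the pseudocount, 325 and 266 at 1.5-fold and 23 and 19 at 3-fold. With a filter at the 50th percentile 51 were lower. Single arrays gave 134 (without replicate 2) to 382 (without replicate 1) higher and 100 to 490 lower. With 1 mutant array limma has no residual degrees of freedom, so its counts were not run. No paired analysis was possible because the wild-type group has 1 sample.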

Other observations

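Several transporter genes of low signal differed in single readings; they were chosen after their values were seen and none was tested. SFP2, a sugar porter-like gene, read 55.8 and 246.2 in cwinv4-1 and 34.6 in wild-type. GTR2, the close relative of GTR1, read 82 and 117.8 in cwinv4-1 and 215.3 in wild-type, and was below it on both mutant arrays. PUP15, a purine permease, read 120.6 and 222.5 in cwinv4-1 and 98.1 in wild-type. SWEET2 read 91.9 and 128.8 in cwinv4-1 and 57.9 in wild-type. The glutamate receptor-like genes GLR3.5 and ATGLR1.2 had no value on either mutant array and 66.9 and 110.3 on the wild-type array. SWEET17 and SWEET16 had a value on both mutant arrays, 40.4 and 90.1 for SWEET17 and 57.2 and 107.9 for SWEET16, and none in wild-type. What a missing value means is not given.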
